A study of Mus musculus with 15 samples.

Results

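The cells compared here were E0771, a mouse mammary carcinoma line, carrying Malt1_PD or an empty vector. Their 6 libraries were taken from a series of 15 by construct name: 3 labelled Malt1_PD and 3 labelled as vector control, called Vector. No count column carries the name Malt1_PD. The 3 columns named C461A, which marks a cysteine replaced by alanine, were assigned to it because every other Malt1 form has columns of its own name. The Vector columns are named Control. The abbreviation PD is not explained in the labels and is read here as protease-dead, since the catalytic residue of MALT1 is a cysteine. The other 9 libraries, 3 each of Malt1_WT, Malt1_V87R and Malt1_L88D, were drawn on only to show where Malt1_PD differs from other forms of the same protein. All cells were grown without T cells, per the series title. The labels state neither the promoter of the constructs, nor whether each line is a pool or 1 clone, nor whether the 3 libraries of a line came from separate cultures. Differences between lines and effects of a construct therefore cannot be told apart, and every p-value rests on a spread among libraries that may be technical only.

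MALT1 is a paracaspase that assembles with BCL10 and a CARD-domain protein into the CBM complex. There it works in 2 ways: as a scaffold it recruits TRAF6 and so activates the IKK kinase and NF-kB, and as a protease it cleaves a set of substrates, several of which restrain NF-kB or destroy inflammatory mRNAs. V87R and L88D lie in the N-terminal death domain, through which MALT1 binds BCL10. The comparison with Vector asks what Malt1_PD changes in tumour cells in the absence of T cells.

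Total counts were 17061605 to 19371109 in Malt1_PD and 16076739 to 21219593 in Vector. Levels are in CPM, the counts scaled to a common library total after TMM normalization. Each value list follows the order of replicates 1, 2 and 3, numbers that the labels tie to no culture or day. Of 55571 genes in the table, 14571 had enough counts to be tested. The 10 markers of mammary carcinoma cells summed to 4268 to 4458 CPM in Malt1_PD and 4652 to 4890 CPM in Vector, most of it Vim. Krt8, a keratin of simple epithelium, was at 118, 113 and 116 CPM in Malt1_PD, against 122, 107 and 122 CPM in Vector, with overlapping groups, and Epcam, an epithelial adhesion gene, was at 5.36, 5.10 and 6.53 CPM in Malt1_PD, against 10.5, 8.42 and 10.3 CPM in Vector (log2 fold change -0.79 ± 0.12 SE, adjusted p = 3e-06). Some markers of immune cells moved as well. The 20 markers of macrophages and dendritic cells summed to 45.8 to 50 CPM in Malt1_PD and 21.7 to 24.1 CPM in Vector. Fcgr3 was at 0 in all 6 libraries. All 8 that could be tested rose, where 22.8% of all genes rose. The filter on low counts used all 15 libraries and left out 12 of the 20. A marker near 0 in Vector could pass the filter only through a line where it was high. Such a marker could hardly appear otherwise than as a rise, and how many of the 8 are such was not counted. The 8 neutrophil markers summed to 41.2 to 48.8 CPM in Malt1_PD and 26.5 to 30.8 CPM in Vector, while the neutrophil antigen gene Ly6g fell and Retnlg was at 0 in all 6 libraries. Of 15 T and NK cell markers, summing to 2.85 to 3.75 CPM in Malt1_PD and 1.86 to 2.28 CPM in Vector, Cd3e, Cd8a, Trbc1, Trbc2, Ncr1 and Nkg7 were at 0 in all 6 libraries. The 5 B cell markers summed to 35.6 to 41.6 CPM in Malt1_PD and 25.0 to 30.5 CPM in Vector, nearly all of it the B lineage factor gene Pax5. The 10 fibroblast markers summed to 445 to 466 CPM in Malt1_PD and 403 to 433 CPM in Vector, and the 7 genes of RNA quality and stress to 2847 to 2893 CPM in Malt1_PD and 2973 to 3145 CPM in Vector. The part of other cells in the inflammatory genes below was not tested. Fewer cells expressing a gene and less RNA per cell cannot be told apart in such bulk libraries.

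Malt1 itself (ENSMUSG00000032688.9, chromosome 18, 65430938 to 65479067, plus strand, GRCm38) stood at 260.0, 247 and 243 CPM in Malt1_PD, against 26.4, 30.2 and 27.8 CPM in Vector. Every Malt1_PD library was far above every Vector library (log2 fold change 3.15 ± 0.05 SE, adjusted p = 9.4e-28). Means in the other lines were 202 CPM in Malt1_WT, 279.8 CPM in Malt1_V87R and 252 CPM in Malt1_L88D. The Malt1_PD level exceeded that of Malt1_WT (log2 difference 0.31 ± 0.04 SE, adjusted p = 2.6e-06) and did not pass the test against the mean of the death-domain mutants (log2 difference -0.09 ± 0.04 SE, adjusted p = 0.054), though it was called lower than them without Malt1_PD replicate 1. The counts read neither the substitution nor the protein.

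In all, 6521 of 14571 genes differed between Malt1_PD and Vector (44.8%), by edgeR's quasi-likelihood test with p-values adjusted after Benjamini and Hochberg to a threshold of 0.05. They split about evenly, with 3318 higher (22.8%) and 3203 lower (22%), around a median log2 fold change of -0.0037 over all tested genes. The large changes did not split evenly: 775 genes rose at least 2-fold (5.32%) and 369 fell as much (2.53%), and at a log2 change of 3 or more there were 72 rises and 12 falls. Summed over called genes, CPM rose by 101260 and fell by 65095 in Malt1_PD. Libraries of the groups did not overlap for 7137 genes (49%).

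Genes of secreted inflammatory proteins made up most of the 12 largest rises. Ccl3, a chemokine for macrophages (chromosome 11, 83647844 to 83649355, minus strand, GRCm38), was at 229, 188 and 210.0 CPM in Malt1_PD, against 2.7, 3.32 and 2.89 CPM in Vector (log2 fold change 6.15 ± 0.11 SE, adjusted p = 2.6e-19). Tnf, tumour necrosis factor, was at 43.3, 36.2 and 41.3 CPM in Malt1_PD, against 1.35, 0.676 and 1.32 CPM in Vector (log2 fold change 5.12 ± 0.14 SE, adjusted p = 2.5e-22). Csf3, the granulocyte colony-stimulating factor, reached 214, 169.8 and 199 CPM in Malt1_PD, against 7.30, 6.33 and 7.50 CPM in Vector (log2 fold change 4.77 ± 0.10 SE, adjusted p = 1e-17). In all 3 genes the lowest Malt1_PD library lay far above the highest Vector library. Means in Malt1_WT were higher than in Malt1_PD, at 357 CPM for Ccl3, 53.5 CPM for Tnf and 398 CPM for Csf3. Il11, a cytokine of the interleukin-6 family, was at 31.5, 30.0 and 37.6 CPM in Malt1_PD, against 1.21, 1.41 and 1.18 CPM in Vector, and the matrix metalloproteinase gene Mmp10 at 49.0, 53.2 and 44.6 CPM in Malt1_PD, against 2.74, 2.27 and 2.06 CPM in Vector. Ch25h makes 25-hydroxycholesterol, an oxysterol, and was at 15.9, 12.8 and 15.5 CPM in Malt1_PD, against 0.511, 0.737 and 0.441 CPM in Vector (log2 fold change 4.73 ± 0.19 SE, adjusted p = 3.4e-18). The rises also held Fgf23, a phosphate hormone, at 6.11, 5.82 and 4.92 CPM in Malt1_PD, against 0.0929, 0.184 and 0.147 CPM in Vector, and Ceacam15, a member of the carcinoembryonic antigen family, at 18.4, 19.9 and 17.4 CPM in Malt1_PD, against 0.372, 0.123 and 0.686 CPM in Vector. Both were under 1 CPM in every Vector library.

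**Figure D1:**
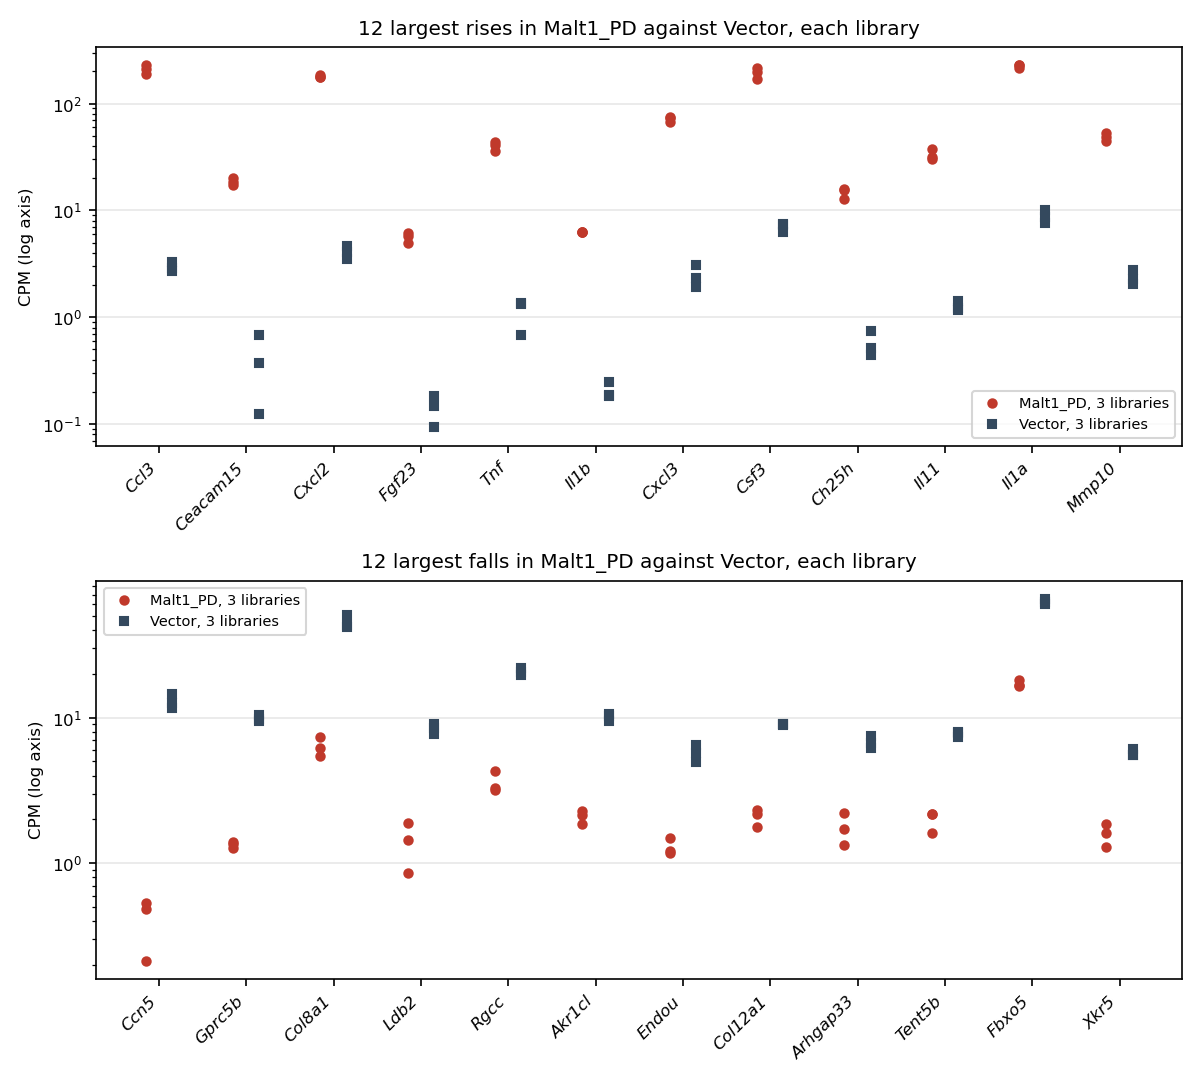
CPM of the 12 genes with the largest rises (top) and falls (bottom) in each of the 3 Malt1_PD libraries (circles) and 3 Vector libraries (squares), on log axes. The groups are apart for every gene, from Ccl3 at a log2 fold change of 6.15 to Ccn5 at -4.97.

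The largest falls were smaller and of mixed kind. Ccn5, a secreted matricellular protein (chromosome 2, 163820861 to 163833146, plus strand, GRCm38), was at 0.212, 0.534 and 0.482 CPM in Malt1_PD, against 12.7, 14.6 and 11.7 CPM in Vector (log2 fold change -4.97 ± 0.21 SE, adjusted p = 9.9e-18). Col8a1, a short-chain collagen, was at 6.16, 7.42 and 5.46 CPM in Malt1_PD, against 43.0, 50.3 and 41.9 CPM in Vector (log2 fold change -2.83 ± 0.12 SE, adjusted p = 2e-14). Rgcc, a regulator of the cell cycle, was at 4.30, 3.21 and 3.26 CPM in Malt1_PD, against 19.6, 22 and 20.5 CPM in Vector, and Fbxo5, which restrains the anaphase-promoting complex, at 18.3, 16.4 and 16.8 CPM in Malt1_PD, against 65.5, 60.3 and 62.4 CPM in Vector (log2 fold change -1.87 ± 0.06 SE, adjusted p = 2.4e-20). No Malt1_PD library reached the lowest Vector library in any of them. The other 8 were the orphan receptor gene Gprc5b (-2.88), the LIM-domain cofactor gene Ldb2 (-2.60), Akr1cl (-2.26), Endou (-2.15), the collagen gene Col12a1 (-2.11), Arhgap33 (-1.97), Tent5b (-1.94) and Xkr5 (-1.84), each with its log2 fold change.

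By the difference of mean CPM other genes led. Fth1, the ferritin heavy chain that stores iron, gained 2608 CPM, at 9276, 7929.8 and 8898 CPM in Malt1_PD, against 6337, 5725 and 6217 CPM in Vector (log2 fold change 0.51 ± 0.05 SE, adjusted p = 3.6e-09). Odc1, ornithine decarboxylase, the first enzyme of polyamine synthesis, was at 3848, 3652 and 3816 CPM in Malt1_PD, against 1806, 1766 and 1838 CPM in Vector (log2 fold change 1.06 ± 0.03 SE, adjusted p = 3.6e-21). Ier3, an immediate-early gene, was at 2735, 2386 and 2696 CPM in Malt1_PD, against 796, 755 and 802 CPM in Vector (log2 fold change 1.73 ± 0.05 SE, adjusted p = 2.5e-18). All 3 were higher in each Malt1_PD library than in any Vector library. The complement component gene C3 gained 891 CPM and the monocyte chemokine gene Ccl2 941 CPM. Among losses, Vim, the intermediate filament of mesenchymal cells, was at 3017, 2811 and 2888 CPM in Malt1_PD, against 3927, 3673 and 3806 CPM in Vector (log2 fold change -0.39 ± 0.03 SE, adjusted p = 6.9e-11), Hspa8, a constitutive chaperone, at 3101, 2975 and 3059.8 CPM in Malt1_PD, against 4015, 3749.8 and 4050.4 CPM in Vector, and Ahnak, a giant scaffold protein, at 447, 516 and 484 CPM in Malt1_PD, against 1019.7, 1166 and 1029 CPM in Vector (log2 fold change -1.15 ± 0.06 SE, adjusted p = 9.7e-13). The glycolytic enzyme genes Pkm and Eno1 lost 659 and 349 CPM, and the tubulin gene Tubb5 lost 345 CPM. A single gene was at 0 in every Vector library and averaged at least 1 CPM in Malt1_PD: the long noncoding RNA gene Gm6093, at 1.59, 1.54 and 0.910 CPM. With 3 counts allowed over the Vector group its level there was at most 0.0515 CPM, which makes it at least 26.2-fold higher in Malt1_PD. No gene showed the opposite pattern.

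**Figure D2:**
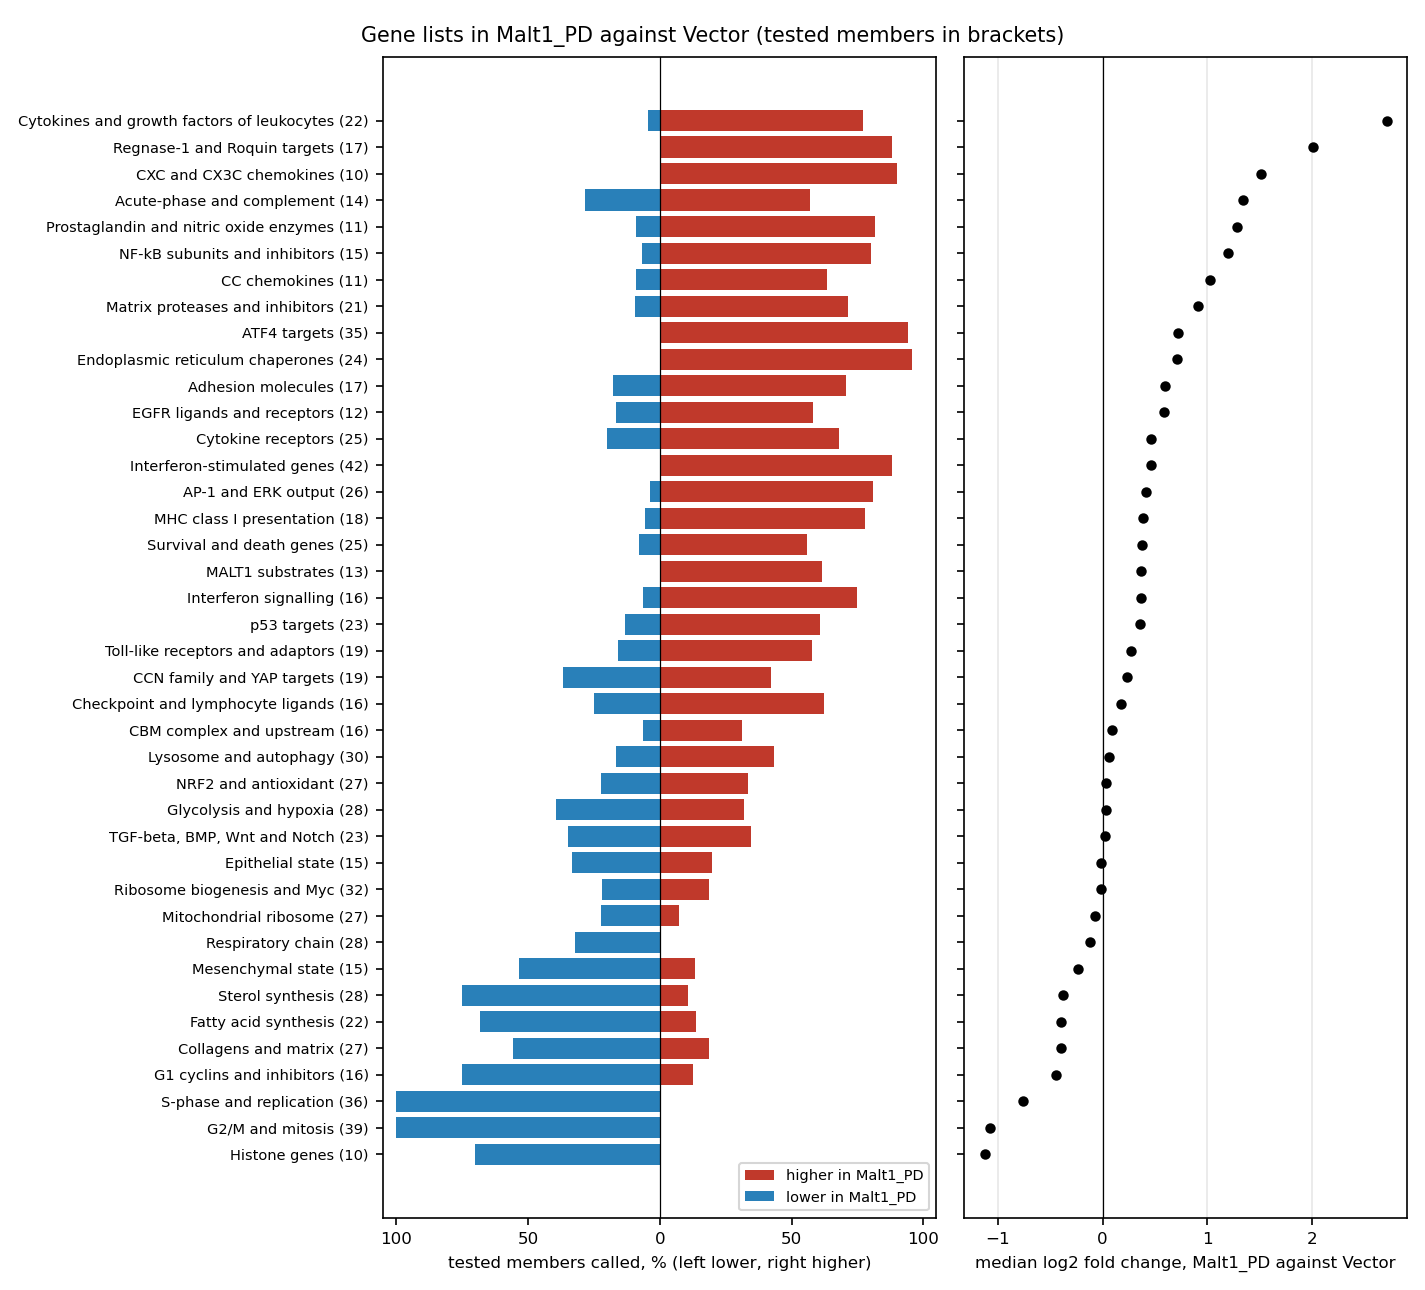
For 40 gene lists, the share of tested members called higher (right) or lower (left) in Malt1_PD against Vector, and the median log2 fold change of the tested members. Cytokines have the highest median at 2.72, and S-phase and G2/M genes are the lists in which every tested member was lower.

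Genes of the complex that Malt1 works in differed by less than 2-fold between Malt1_PD and Vector. Of 16 tested genes of the CBM complex and its upstream and downstream partners, 5 rose and Tab1 fell, against 22.8% and 22% of all genes, with a median log2 fold change of 0.09. Bcl10, the direct partner of MALT1, was at 121, 121 and 121 CPM in Malt1_PD, against 83.8, 79.6 and 85.9 CPM in Vector (log2 fold change 0.54 ± 0.05 SE, adjusted p = 8.6e-11). Card10, the CARD protein of the complex outside lymphocytes, was at 31.2, 29.8 and 30.8 CPM in Malt1_PD, against 17.6, 17.8 and 21.1 CPM in Vector (log2 fold change 0.70 ± 0.09 SE, adjusted p = 7.1e-08). Traf6, the ubiquitin ligase that MALT1 recruits, and Ikbkb, an IKK kinase subunit, rose 1.42- and 1.31-fold. None of these groups overlapped. Map3k7, the kinase between TRAF6 and IKK, was at 84.6, 91.3 and 85 CPM in Malt1_PD, against 85.4, 98.0 and 86.0 CPM in Vector, with mixed libraries (adjusted p = 0.56). The call of Tab1 was lost without Malt1_PD replicate 2, without Vector replicate 3, and with a fit of the 6 libraries alone.

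Among genes whose proteins are known MALT1 substrates, 8 of 13 rose and none fell in this fit, with a median log2 fold change of 0.37. Tnfaip3 encodes A20, a deubiquitinase that limits NF-kB, and was at 134, 135 and 128 CPM in Malt1_PD, against 29.0, 28.8 and 28.7 CPM in Vector (log2 fold change 2.20 ± 0.06 SE, adjusted p = 2e-22). Zc3h12a, encoding the RNA-degrading Regnase-1, was at 183, 169 and 178 CPM in Malt1_PD, against 89.9, 90.8 and 91.3 CPM in Vector (log2 fold change 0.96 ± 0.04 SE, adjusted p = 2.8e-17). Relb, an NF-kB subunit gene, was at 62.9, 59.5 and 61.0 CPM in Malt1_PD, against 23.3, 23.9 and 25.4 CPM in Vector (log2 fold change 1.34 ± 0.06 SE, adjusted p = 1.9e-16). The Malt1_PD libraries were about level with each other and all above Vector for these genes. Cyld, another deubiquitinase and substrate, was at 56.8, 72.9 and 59.5 CPM in Malt1_PD, against 63.2, 71.0 and 64.1 CPM in Vector with overlapping groups, and it was called lower without Malt1_PD replicate 2. These are mRNA levels and do not read cleavage. Transcripts that Regnase-1 and the related Roquin proteins are known to destroy rose in 15 of 17 tested cases, with a median of 2.01. Compared with Malt1_WT, 11 of the 17 were lower in Malt1_PD and 0 higher, where 10.7% of all genes were lower and 12.6% higher. Most of these transcripts are the cytokine and NF-kB genes described next.

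NF-kB subunits and inhibitors rose in 12 of 15 cases, with a median log2 fold change of 1.20 against -0.0037 for all genes. Compared with Malt1_WT, 6 of the 15 were higher in Malt1_PD and 2 lower (median log2 difference 0.01). Over all genes 12.6% were higher and 10.7% lower in that comparison. Nfkb1, the precursor of p50, was at 537, 559.9 and 530.0 CPM in Malt1_PD, against 180.1, 184 and 194 CPM in Vector (log2 fold change 1.54 ± 0.04 SE, adjusted p = 3.8e-23). Nfkb2, the precursor of p52, was at 243, 223 and 242 CPM in Malt1_PD, against 94.2, 85.2 and 90.1 CPM in Vector (log2 fold change 1.39 ± 0.04 SE, adjusted p = 1.9e-20). Nfkbia, the inhibitor IkB-alpha and itself an NF-kB target, was at 711, 653 and 691 CPM in Malt1_PD, against 235, 234 and 242 CPM in Vector (log2 fold change 1.53 ± 0.04 SE, adjusted p = 1.8e-22). These genes had no overlap between groups. Bcl3, a nuclear IkB protein, was the member that fell. Levels in the death-domain mutants were closer to Vector. Nfkb1 averaged 542 CPM in Malt1_PD against 214 in Malt1_V87R and 208 in Malt1_L88D, and Nfkbia 685 CPM in Malt1_PD against 246 in Malt1_V87R and 228 in Malt1_L88D. Against the mean of these mutants, 11 of the 15 genes were higher in Malt1_PD and 2 lower. Over all genes 6751 (46.3%) differed in that comparison, with 23.7% higher and 22.6% lower. Against Vector, 6 of the 15 rose in Malt1_V87R and none fell, where 11.7% of all genes were called, 7.01% higher and 4.7% lower. In Malt1_L88D 5 rose and 1 fell, where 17.4% of all genes were called, 8.96% higher and 8.43% lower.

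CXC chemokines and the related Cx3cl1, which attract neutrophils and lymphocytes, rose in 9 of 10 tested cases (median 1.51). Compared with Malt1_WT, 7 of the 10 were lower in Malt1_PD and 0 higher (median log2 difference -0.70). Over all genes 10.7% were lower and 12.6% higher in that comparison. Cxcl1, a neutrophil chemokine, was at 1626, 1465 and 1480.2 CPM in Malt1_PD, against 208, 194 and 208 CPM in Vector (log2 fold change 2.91 ± 0.04 SE, adjusted p = 6.5e-28). Cxcl2 was at 186, 176 and 178 CPM in Malt1_PD, against 4.69, 4.06 and 3.53 CPM in Vector (log2 fold change 5.45 ± 0.08 SE, adjusted p = 2.6e-28). Cxcl3 was at 74.7, 73.4 and 67.5 CPM in Malt1_PD, against 3.11, 1.91 and 2.35 CPM in Vector (log2 fold change 4.84 ± 0.12 SE, adjusted p = 4.5e-21). These neighbouring genes of chromosome 5 showed no overlap between groups, and 5 further chemokine genes of the list were too low to test. Cx3cl1, a membrane-bound chemokine, was at 35.9, 29.6 and 33.1 CPM in Malt1_PD, against 4.69, 5.65 and 5.24 CPM in Vector (log2 fold change 2.67 ± 0.09 SE, adjusted p = 1.6e-19). Cxcl1, Cxcl2 and Cxcl3 are close paralogs, so reads may be split between them.

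The promoters of the 3 neighbours and of Nfkbia are shown because each holds a match to the motif that NF-kB binds. The stretches are the 200 bases before the start of the gene on its own strand, from RefSeq on GRCm38.p6: chr5:90891045-90891244 for Cxcl1, chr5:90903699-90903898 for Cxcl2 and chr5:90785901-90786100 for Cxcl3, all on the plus strand, and chr12:55492648-55492847 for Nfkbia on the minus strand. Capitals mark matches to the kappa B consensus on either strand.
Cxcl1: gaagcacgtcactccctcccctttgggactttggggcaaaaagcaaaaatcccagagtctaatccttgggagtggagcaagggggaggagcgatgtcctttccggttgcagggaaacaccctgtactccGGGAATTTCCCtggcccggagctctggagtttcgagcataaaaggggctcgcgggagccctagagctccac
Cxcl2: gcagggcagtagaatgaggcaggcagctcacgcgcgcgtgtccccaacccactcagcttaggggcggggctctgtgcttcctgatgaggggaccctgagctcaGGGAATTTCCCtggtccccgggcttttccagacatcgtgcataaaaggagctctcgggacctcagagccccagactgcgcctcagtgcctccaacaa
Cxcl3: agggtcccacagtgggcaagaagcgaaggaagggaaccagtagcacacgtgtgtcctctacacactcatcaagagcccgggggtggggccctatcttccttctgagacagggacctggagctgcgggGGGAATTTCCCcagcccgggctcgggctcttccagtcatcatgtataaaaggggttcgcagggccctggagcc
Nfkbia: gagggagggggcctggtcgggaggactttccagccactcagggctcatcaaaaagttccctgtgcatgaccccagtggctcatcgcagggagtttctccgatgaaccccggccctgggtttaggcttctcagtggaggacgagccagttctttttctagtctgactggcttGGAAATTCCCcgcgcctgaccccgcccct
In Cxcl1, Cxcl2 and Cxcl3 the capitals are the same run, which matches on both strands in overlapping frames. It begins 71 bases before the RefSeq start in Cxcl1, 97 in Cxcl2 and 73 in Cxcl3. GENCODE M21, the other annotation used here, begins Cxcl2 at 90903871, inside the printed stretch. The distances therefore hold for the RefSeq starts only. Nfkbia has its match 29 to 20 bases before the start, on the opposite strand. Over windows from 250 bases before to 50 after a start, the consensus was found in 1480 of 32851 RefSeq promoters (4.51%) and in 667 of 12874 promoters of tested genes (5.18%). Among genes that rose and have a promoter in the table, it was in 9 of 12 promoters of the NF-kB subunits and inhibitors and 4 of 6 of the CXC chemokines. It was in 1 of 3 of the CC chemokines, 5 of 16 of the AP-1 and ERK genes and 2 of 18 (11.1%) of the cytokines. These counts are of promoters, and a gene with several starts enters more than once. The 12 promoters belong to 9 of the 12 NF-kB genes that rose. The 16 belong to 14 of 21 AP-1 and ERK genes, and the 18 to 14 of 17 cytokine genes. Among genes up at least 2-fold the share was 8.57% of 677 promoters, and among genes down at least 2-fold 4.56% of 285. The AP-1 element TGANTCA, on either strand, was in 14.6% of the promoters up at least 2-fold and 5.96% of those down at least 2-fold. Its share was 5.72% for promoters of tested genes and 7.81% for all. It was in 0 of the 16 promoters of AP-1 and ERK genes that rose. A match describes letters, not binding.

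CC chemokines rose in 7 of 11 cases (median 1.03), and Ccl11, an eosinophil chemokine, fell. Compared with Malt1_WT, 5 of the 11 were lower in Malt1_PD and 2 higher (median log2 difference -0.33). Over all genes 10.7% were lower and 12.6% higher in that comparison. Ccl2, which draws monocytes, was at 1468, 1282 and 1361 CPM in Malt1_PD, against 447, 411 and 432 CPM in Vector (log2 fold change 1.67 ± 0.04 SE, adjusted p = 1.8e-22). Ccl7, a related monocyte chemokine, was at 739, 664 and 674 CPM in Malt1_PD, against 348, 327 and 342 CPM in Vector (log2 fold change 1.03 ± 0.04 SE, adjusted p = 6.9e-19). Ccl4, a partner of Ccl3, was at 8.71, 6.83 and 9.42 CPM in Malt1_PD, against 0.744, 1.04 and 0.686 CPM in Vector (log2 fold change 3.36 ± 0.22 SE, adjusted p = 1.4e-13). All were above Vector in each library. Ccl8 was at 1.70, 1.78 and 2.30 CPM in Malt1_PD, against 3.07, 1.29 and 2.94 CPM in Vector, with overlapping groups, and was called lower without Vector replicate 2.

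Cytokines and growth factors of leukocytes rose in 17 of 22 cases, with the highest median of the 40 lists, 2.72, and Tgfb3 fell. Most stood below Malt1_WT: 14 of the 22 were lower in Malt1_PD and 1 higher (median log2 difference -0.52). Over all genes 10.7% were lower and 12.6% higher in that comparison. Il1a, the alarmin interleukin-1 alpha, was at 228, 229 and 216 CPM in Malt1_PD, against 8.64, 7.56 and 10 CPM in Vector (log2 fold change 4.67 ± 0.06 SE, adjusted p = 1e-28). Il1b was at 6.27, 6.29 and 6.32 CPM in Malt1_PD, against 0.186, 0.184 and 0.245 CPM in Vector (log2 fold change 4.89 ± 0.24 SE, adjusted p = 3.3e-16). Il1rn, the receptor antagonist that blocks both, was at 129.8, 123 and 125 CPM in Malt1_PD, against 21.1, 19.7 and 20.8 CPM in Vector (log2 fold change 2.61 ± 0.06 SE, adjusted p = 2.3e-24). The agonists and their antagonist moved in the same direction, with no overlap. Il1b was at most 0.279 CPM in any Vector or death-domain library, and passed the filter on low counts only through lines where it was high. A member like it could enter the count and the median of the list hardly otherwise than as a rise. How many such members the list holds was not counted. Il6 was at 128, 118 and 118 CPM in Malt1_PD, against 17.7, 17.1 and 16.6 CPM in Vector (log2 fold change 2.82 ± 0.06 SE, adjusted p = 1.1e-23). Csf1, the growth factor of macrophages, was at 743, 688 and 740.5 CPM in Malt1_PD, against 154, 156 and 159 CPM in Vector (log2 fold change 2.21 ± 0.04 SE, adjusted p = 8.6e-27). Il34, the other ligand of the Csf1 receptor, did not pass the test at 13.9, 15.2 and 14.5 CPM in Malt1_PD, against 14.5, 10.9 and 16.1 CPM in Vector.

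Receptors were mixed. Of 25 tested cytokine receptor genes 17 rose and 5 fell (median 0.46). Tnfrsf1b, the second TNF receptor, was at 491, 481 and 498 CPM in Malt1_PD, against 175, 164 and 181 CPM in Vector (2.82-fold higher, adjusted p = 1.3e-22). Cd40, a receptor of antigen-presenting cells, was at 37.1, 34.8 and 39.6 CPM in Malt1_PD, against 9.53, 9.46 and 8.48 CPM in Vector (log2 fold change 2.02 ± 0.08 SE, adjusted p = 7.2e-18). Ifngr2, a chain of the interferon-gamma receptor, was at 95.1, 89.4 and 90.6 CPM in Malt1_PD, against 38.8, 35.5 and 35.7 CPM in Vector (log2 fold change 1.32 ± 0.05 SE, adjusted p = 1.8e-18). Il6ra, the binding chain for interleukin-6, went the other way at 48.0, 50.9 and 46.6 CPM in Malt1_PD, against 104, 109 and 99.4 CPM in Vector (log2 fold change -1.11 ± 0.05 SE, adjusted p = 6.2e-17). Its Malt1_PD libraries were all below Vector, while those of the other 3 were all above. Tnfrsf1a, Il4ra, Il13ra1 and Il17ra also fell. Of 19 innate sensors and adaptors 11 rose and 3 fell, or 1 without the filter on low counts (median 0.28), with the lipoprotein sensor Tlr2 at 51.5, 50.9 and 53.9 CPM in Malt1_PD, against 17.8, 18.2 and 18.2 CPM in Vector and the kinase Irak2 at 59.9, 58.5 and 62.9 CPM in Malt1_PD, against 21.9, 20.7 and 21.8 CPM in Vector.

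Enzymes of small inflammatory mediators rose in 9 of 11 cases (median 1.29). Ptges, a prostaglandin E synthase, was at 1221, 1146 and 1218 CPM in Malt1_PD, against 317, 306 and 324 CPM in Vector (log2 fold change 1.92 ± 0.04 SE, adjusted p = 1.8e-25). Nos2, the inducible nitric oxide synthase, was at 1006, 981 and 1025 CPM in Malt1_PD, against 304, 316 and 347 CPM in Vector (log2 fold change 1.64 ± 0.04 SE, adjusted p = 1.3e-22). Gch1 and Ass1, which supply its cofactor and its substrate, rose 3.98- and 1.77-fold. In each of them the lowest Malt1_PD library was above the highest Vector library. Nos2 was also high in Malt1_WT, at 2351 CPM, where it stood above Malt1_PD (log2 difference -1.23 ± 0.04 SE, adjusted p = 2.9e-19), and Ass1 and Gch1 did not differ by the test between the 2 lines (adjusted p = 0.16 and 0.52). Ptges3, a cytosolic prostaglandin E synthase, was called lower, by 0.10 on the log2 scale, and lost that call at 8 of the alternatives, among them without any 1 of the Vector libraries.

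Of 14 acute-phase and complement genes 8 rose and 4 fell (median 1.34). Hp, haptoglobin, was at 305, 265 and 279 CPM in Malt1_PD, against 90.2, 81.4 and 86.5 CPM in Vector (log2 fold change 1.72 ± 0.05 SE, adjusted p = 1.9e-20). Cp, the copper oxidase ceruloplasmin, was at 20.8, 22.5 and 18.7 CPM in Malt1_PD, against 3.67, 4.24 and 4.71 CPM in Vector (log2 fold change 2.30 ± 0.11 SE, adjusted p = 3.6e-16). C4b, a component of the classical complement pathway, was lower at 3.13, 3.92 and 3.75 CPM in Malt1_PD, against 9.02, 9.10 and 7.79 CPM in Vector (log2 fold change -1.26 ± 0.12 SE, adjusted p = 7.8e-10), and C1s1 and C1ra, its upstream proteases, fell with it. C3 and C4b moved in opposite directions. C4b averaged 22.9 CPM in Malt1_V87R and 26.5 CPM in Malt1_L88D, several times the Malt1_PD mean of 3.60 CPM (log2 difference -2.78 ± 0.10 SE, adjusted p = 9.4e-20).

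Of 26 genes of AP-1 and ERK output, a list that includes ERK feedback inhibitors, 21 rose (median 0.41) and the ERK-responsive factor gene Etv5 fell. Phlda1 was at 123, 106 and 119.7 CPM in Malt1_PD, against 36.4, 33.7 and 39.5 CPM in Vector (log2 fold change 1.67 ± 0.06 SE, adjusted p = 1.7e-19), and Junb, an AP-1 subunit, at 388, 352 and 379.9 CPM in Malt1_PD, against 184, 173 and 180.4 CPM in Vector (log2 fold change 1.06 ± 0.05 SE, adjusted p = 1.7e-16). Spred1 and Spred2, inhibitors of Ras to ERK signalling, did not pass the test, though Spred2 was called higher without Malt1_PD replicate 1 and without Vector replicate 2. Of 12 EGF receptor ligands and regulators 7 rose and 2 fell. Hbegf, a membrane-anchored ligand, was at 142, 143 and 133 CPM in Malt1_PD, against 34.7, 31.8 and 35.9 CPM in Vector (log2 fold change 2.02 ± 0.06 SE, adjusted p = 2.1e-20), and Areg, amphiregulin, at 133, 121 and 127 CPM in Malt1_PD, against 66.0, 63.8 and 70.7 CPM in Vector. Errfi1, an intracellular inhibitor of the receptor, rose 2.20-fold, and Lrig1, another negative regulator, was lower at 85.3, 88.8 and 88.8 CPM in Malt1_PD, against 125, 124 and 127 CPM in Vector. Ligands were higher in every Malt1_PD library.

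Of 21 matrix proteases and inhibitors 15 rose and 2 fell (median 0.91). Plat, the tissue plasminogen activator, was at 204, 215 and 223 CPM in Malt1_PD, against 36.7, 36.9 and 42.5 CPM in Vector (log2 fold change 2.46 ± 0.06 SE, adjusted p = 1.7e-23). Mmp3 and Mmp9, matrix metalloproteinases, were at 76.4, 72.1 and 76.9 CPM in Malt1_PD, against 11, 10.1 and 10.1 CPM in Vector, and at 98.0, 90.1 and 95.7 CPM in Malt1_PD, against 14.2, 12.4 and 14.8 CPM in Vector. All Malt1_PD libraries were above Vector for these 3 genes. The lysosomal cathepsins Ctsb and Ctsl overlapped between groups (adjusted p = 0.33 and 0.75). Adhesion molecules rose in 12 of 17 cases, with Itgb3, the beta chain of the vitronectin receptor, at 141, 148 and 152 CPM in Malt1_PD, against 27.3, 30.6 and 32.7 CPM in Vector (log2 fold change 2.29 ± 0.06 SE, adjusted p = 2.7e-22) and Icam1, which leukocyte integrins bind, at 50.2, 45.9 and 51.8 CPM in Malt1_PD, against 14.7, 15.3 and 15.4 CPM in Vector (log2 fold change 1.71 ± 0.07 SE, adjusted p = 4e-18). The members that fell were Itga3, Itga6 and Itgb4, laminin-binding integrin chains of epithelia.

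Collagen and matrix genes fell more often than they rose, in 15 of 27 cases against 5 (median -0.40; 22% of all genes fell). Sparc, a collagen-binding matricellular protein, was at 287, 269.5 and 299.6 CPM in Malt1_PD, against 612, 596 and 602 CPM in Vector (log2 fold change -1.08 ± 0.04 SE, adjusted p = 9.6e-20). Col6a3 was at 250.2, 279 and 263 CPM in Malt1_PD, against 435, 448 and 447 CPM in Vector (log2 fold change -0.75 ± 0.04 SE, adjusted p = 1.2e-15). Tnc, tenascin C, went up, at 244, 262 and 252 CPM in Malt1_PD, against 58.6, 66.1 and 63.7 CPM in Vector (log2 fold change 2.01 ± 0.05 SE, adjusted p = 6.7e-23). The libraries were apart for these genes, in both directions. Col6a1 and Col6a2, partners of Col6a3 in the same heterotrimer, were at 767, 701 and 766 CPM in Malt1_PD, against 735, 687 and 708 CPM in Vector, and at 354, 313 and 336 CPM in Malt1_PD, against 359, 348 and 347 CPM in Vector, and neither passed the test, although Col6a1 was called higher without Malt1_PD replicate 2 and without Vector replicate 1. Malt1_WT cells had less of both, with means of 384 and 178 CPM (log2 difference 0.96 ± 0.04 SE, adjusted p = 2.5e-17 for Col6a1). Of 15 mesenchymal genes 8 fell and 2 rose, with Axl, a receptor kinase, at 330.3, 340.2 and 342 CPM in Malt1_PD, against 498, 507 and 499 CPM in Vector and Snai1, a repressor of epithelial genes, at 44.7, 43.4 and 45.7 CPM in Malt1_PD, against 64.3, 62.4 and 67.0 CPM in Vector. Of 15 epithelial genes 3 rose (20%), the protease gene St14, the pioneer factor gene Foxa1 and the desmosome gene Dsp. In the same list 5 fell (33.3%), or 3 without Malt1_PD replicate 2. Over all genes 22.8% rose and 22% fell. Of 19 CCN family and YAP target genes 8 rose (42.1%) and 7 fell (36.8%), with F3, tissue factor, 2.30-fold higher.

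Interferon-linked genes changed in small steps. Of 42 tested interferon-stimulated genes, 37 rose and none fell in this fit, but the median log2 fold change was 0.46. Gbp5, an interferon-inducible GTPase, was at 54.2, 49.5 and 58.2 CPM in Malt1_PD, against 17.8, 19.4 and 18.8 CPM in Vector (log2 fold change 1.54 ± 0.07 SE, adjusted p = 2.7e-17). Parp14, an ADP-ribosyltransferase, was at 287, 311 and 320.0 CPM in Malt1_PD, against 125, 137 and 118 CPM in Vector (log2 fold change 1.27 ± 0.05 SE, adjusted p = 1.3e-18). Irf1, a transcription factor of the interferon-gamma response (chromosome 11, 53770014 to 53778374, plus strand, GRCm38), was at 107, 97.9 and 101 CPM in Malt1_PD, against 58.7, 56.1 and 55.6 CPM in Vector (log2 fold change 0.84 ± 0.05 SE, adjusted p = 3.5e-15). Groups did not overlap for these genes. Of 16 genes of interferon signalling, from receptors' kinases to regulators, 12 rose and Jak1 fell (median 0.37). Stat3, a shared transcription factor, was at 335, 327 and 334 CPM in Malt1_PD, against 330.5, 329.8 and 334 CPM in Vector (adjusted p = 0.96). Gbp and Oas genes have near-identical relatives, so single values among them are uncertain.

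Several genes of this branch stood much higher in the other Malt1 lines. Cd274, the gene of the checkpoint ligand PD-L1 (chromosome 19, 29367455 to 29388095, plus strand, GRCm38), was at 23.7, 21.5 and 20.4 CPM in Malt1_PD, against 4.83, 5.90 and 5.64 CPM in Vector (log2 fold change 2.01 ± 0.08 SE, adjusted p = 4.7e-18), whereas means were 175 CPM in Malt1_WT, 199.9 in Malt1_V87R and 182 in Malt1_L88D. Against the mean of the death-domain mutants Malt1_PD was lower by 3.12 ± 0.06 SE on the log2 scale. Gbp2 averaged 98.0 CPM in Malt1_PD, 472 in Malt1_WT, 385 in Malt1_V87R, 369 in Malt1_L88D and 49.5 in Vector. Irf1 averaged 102 CPM in Malt1_PD against 423 in Malt1_WT, 361 in Malt1_V87R and 349 in Malt1_L88D. For Nfkb1 the order was different, with Malt1_PD above both death-domain mutants. Over the list, 25 of 42 genes were lower in Malt1_PD than in the death-domain mutants and 6 higher, and 26 were lower and 5 higher than in Malt1_WT (10.7% and 12.6% of all genes, with 3399 or 23.3% called in all). Against Vector 37 of the 42 rose in each of Malt1_PD, Malt1_WT, Malt1_V87R and Malt1_L88D, and 1 fell in Malt1_WT; these comparisons share the Vector libraries. The median log2 fold change was 0.46 in Malt1_PD, 0.78 in Malt1_WT, 0.66 in Malt1_V87R and 0.70 in Malt1_L88D. Malt1_WT differed from Vector in 54.9% of all genes, with 27.2% higher and 27.7% lower.

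Antigen presentation genes rose against Vector but mostly stood below the other Malt1 lines. Of 18 MHC class I presentation genes 14 rose against Vector and Tap2 fell, a call lost at 7 of the alternatives, among them without Malt1_PD replicate 2, without Vector replicate 1 and without Vector replicate 3 (median 0.38), and B2m, the light chain of class I, was at 1275, 1187 and 1196 CPM in Malt1_PD, against 824, 831 and 855 CPM in Vector (log2 fold change 0.54 ± 0.03 SE, adjusted p = 4.4e-14). Calr, a chaperone of the peptide-loading complex, was at 1813, 1629 and 1808 CPM in Malt1_PD, against 979, 942 and 1005 CPM in Vector (log2 fold change 0.84 ± 0.04 SE, adjusted p = 6.4e-17), and Tapbpl, a peptide editor, at 33.2, 33.1 and 32.9 CPM in Malt1_PD, against 11.1, 12.7 and 13.8 CPM in Vector. Calr and Pdia3 are also chaperones of the endoplasmic reticulum. Nlrc5, the transactivator of class I genes, was at 55.2, 53.9 and 58.5 CPM in Malt1_PD, against 50, 57.2 and 53.1 CPM in Vector, with overlapping groups (adjusted p = 0.35), while its means were 144 CPM in Malt1_WT, 163 in Malt1_V87R and 168 in Malt1_L88D (log2 difference -1.57 ± 0.05 SE, adjusted p = 5.6e-21 against the mutants). Psmb8, an immunoproteasome subunit, was at 79.4, 67.7 and 74.8 CPM in Malt1_PD, against 78.3, 72.7 and 79.8 CPM in Vector, also with overlap, while its means were 136 CPM in Malt1_V87R and 133 CPM in Malt1_L88D. Across the list 12 genes were lower and 4 higher in Malt1_PD than in the death-domain mutants, and 13 lower and 2 higher than in Malt1_WT. Of 16 checkpoint and lymphocyte ligand genes 10 rose and 4 fell. Pvr, which NK cell receptors bind, was at 463, 472 and 453 CPM in Malt1_PD, against 132, 154 and 151 CPM in Vector (log2 fold change 1.67 ± 0.05 SE, adjusted p = 5.2e-22), with means of 163 CPM in Malt1_V87R and 170.1 CPM in Malt1_L88D, and Cd47, the signal against phagocytosis, rose 1.55-fold.

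**Figure D3:**
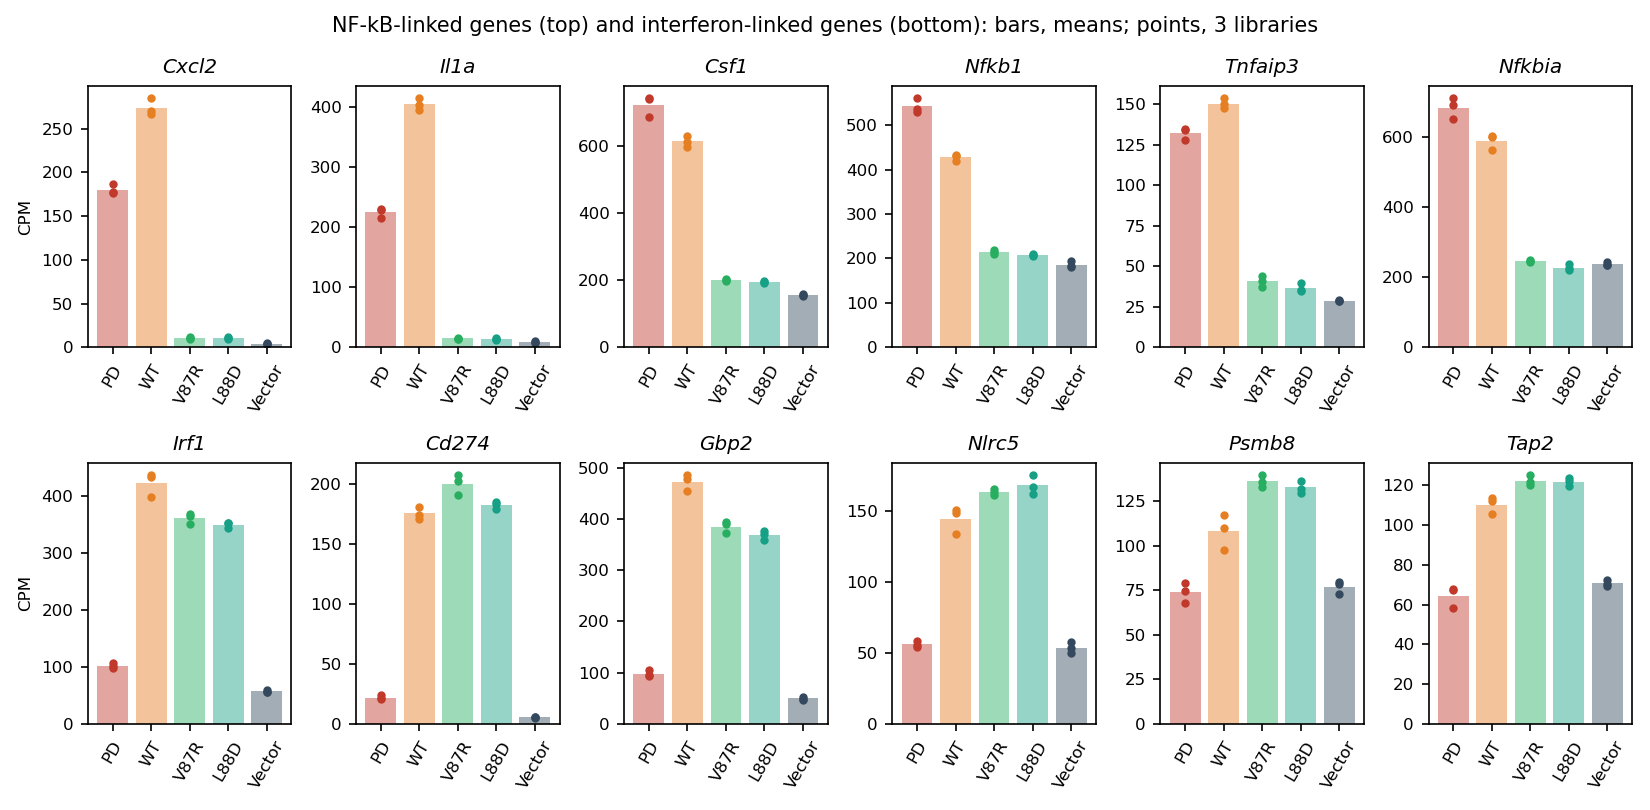
CPM of 6 NF-kB-linked genes (top) and 6 interferon-linked genes (bottom), picked after their values were seen, in the 3 libraries of each line; bars are means and axes start at 0. In the top row Malt1_PD stands above Malt1_V87R, Malt1_L88D and Vector, with Cxcl2 at means of 180.1 CPM in Malt1_PD, 274 in Malt1_WT, 10.2 in Malt1_V87R and 4.09 in Vector. In the bottom row it stands below the other Malt1 lines, above Vector for Irf1, Cd274 and Gbp2 and not for Nlrc5, Psmb8 and Tap2; Cd274 averaged 21.9 CPM in Malt1_PD, 175 in Malt1_WT, 199.9 in Malt1_V87R and 5.46 in Vector.

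Genes of DNA replication and mitosis fell in every case tested. All 39 tested genes of G2/M and mitosis were lower in Malt1_PD than in Vector, by 0.53 to 1.63 on the log2 scale (median -1.08), and all 36 S-phase and replication genes were lower (median -0.77), where 22% of all genes fell. Mki67, the antigen of the Ki-67 stain, was at 81.2, 85.4 and 75.8 CPM in Malt1_PD, against 229.5, 229 and 219 CPM in Vector (log2 fold change -1.48 ± 0.05 SE, adjusted p = 3.4e-20). Top2a, the topoisomerase of mitotic chromosomes, was at 582, 602 and 576 CPM in Malt1_PD, against 1179, 1229 and 1156 CPM in Vector (log2 fold change -1.02 ± 0.03 SE, adjusted p = 7e-20). Ccna2, cyclin A2, was at 104, 112 and 96.3 CPM in Malt1_PD, against 258, 275 and 264 CPM in Vector (log2 fold change -1.35 ± 0.05 SE, adjusted p = 9e-20). Groups were far apart in each. E2f8, a repressor of the E2F family, was at 48.6, 49.6 and 48.6 CPM in Malt1_PD, against 126, 124 and 127 CPM in Vector (log2 fold change -1.36 ± 0.05 SE, adjusted p = 3.7e-19), and Rrm2, the small subunit of ribonucleotide reductase, at 208, 195 and 203 CPM in Malt1_PD, against 401, 399 and 385 CPM in Vector. Of 16 genes of G1 cyclins and inhibitors 12 fell and Ccnd2 and Cdkn1a rose. Cdkn1a, the inhibitor p21, was at 875, 803 and 853 CPM in Malt1_PD, against 285, 277 and 288 CPM in Vector (log2 fold change 1.58 ± 0.04 SE, adjusted p = 2.7e-22). Ccnd1, cyclin D1, was at 228, 238 and 244 CPM in Malt1_PD, against 321, 345 and 335 CPM in Vector and Cdk6 overlapped between groups. Of 23 p53 targets 14 rose and 3 fell (median 0.36), and Trp53 itself did not pass the test (adjusted p = 0.22) but was called higher without Malt1_PD replicate 2. Histone genes fell in 7 of 10 cases, or 3 without Vector replicate 1 and 4 without Malt1_PD replicate 1. Their mRNAs are mostly without poly(A) tails and their copies are near-identical, so these values are uncertain.

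The mitotic list also separated Malt1_PD from Malt1_WT: 38 of 39 genes were higher in Malt1_PD and none was lower. Of the S-phase genes 2 were higher and 3 lower, where 12.6% of all genes were higher and 10.7% lower. Mki67 averaged 80.8 CPM in Malt1_PD, 50.3 in Malt1_WT and 226 in Vector (log2 difference 0.68 ± 0.05 SE, adjusted p = 7.9e-11 against Malt1_WT). Rrm2 averaged 202 CPM in Malt1_PD, 193 in Malt1_WT and 395 in Vector, with no call between the Malt1 lines (adjusted p = 0.21). Both lists were lower throughout than in the death-domain mutants, with 39 of 39 and 36 of 36 called, against 22.6% of all genes. The mutants also fell against Vector, by less. Of the 39 mitotic genes 32 were lower and 1 higher in Malt1_V87R (median -0.24), and 31 lower and 0 higher in Malt1_L88D (median -0.29). Of the 36 S-phase genes 5 were lower in Malt1_V87R and 18 in Malt1_L88D, with 0 higher in either. Over all genes 4.7% were lower in Malt1_V87R and 8.43% in Malt1_L88D.

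Promoters of mitotic genes share short elements, and those of Cdc20 and Top2a are printed to show one. Cdc20, whose promoter was picked for its clear match near the start, encodes the activator of the anaphase-promoting complex. Both stretches are 200 bases before the start on the minus strand of GRCm38.p6, from RefSeq: chr4:118437344-118437543 for Cdc20 and chr11:99024190-99024389 for Top2a. Capitals mark the cell cycle homology region, TTTGAA on either strand.
Cdc20: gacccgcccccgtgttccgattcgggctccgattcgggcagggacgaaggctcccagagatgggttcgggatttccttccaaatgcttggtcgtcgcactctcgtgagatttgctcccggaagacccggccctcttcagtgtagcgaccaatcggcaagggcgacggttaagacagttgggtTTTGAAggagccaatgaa
Top2a: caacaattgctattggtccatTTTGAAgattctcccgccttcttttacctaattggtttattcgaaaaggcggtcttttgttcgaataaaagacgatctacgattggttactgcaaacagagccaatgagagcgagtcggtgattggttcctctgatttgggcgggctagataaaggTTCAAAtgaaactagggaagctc
The match lies 18 to 13 bases before the start in Cdc20, and in Top2a at 179 to 174 and, on the opposite strand, at 23 to 18. Of 33 promoters of G2/M genes that fell, 24 held the hexamer (72.7%), against 17.9% of all promoters, 12.3% of those of tested genes and 14.3% of 35 promoters of S-phase genes that fell. CCAAT on either strand was in 81.8% of the G2/M promoters, 60% of the S-phase promoters, 37.8% of those of tested genes and 37.4% of all. The E2F element TTTNGCG was in 34.3% of the S-phase promoters and 6.06% of the G2/M promoters. Its share was 6.47% for promoters of tested genes and 4.22% for all. The windows may overlap where a gene has several starts, and no binding was measured.

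Chaperones of the endoplasmic reticulum rose as a group, in 23 of 24 tested cases with none lower (median 0.71). Hspa5, the master chaperone BiP, was at 3461, 3390.2 and 3519 CPM in Malt1_PD, against 1187, 1154 and 1190.0 CPM in Vector (log2 fold change 1.55 ± 0.04 SE, adjusted p = 2.6e-23). Hyou1, a large chaperone, was at 517, 489.9 and 518 CPM in Malt1_PD, against 260.0, 257 and 255 CPM in Vector (log2 fold change 0.98 ± 0.04 SE, adjusted p = 3.4e-19). Creld2, a disulphide isomerase-like protein, was at 119, 108 and 117 CPM in Malt1_PD, against 46.8, 44.0 and 46.8 CPM in Vector (log2 fold change 1.32 ± 0.05 SE, adjusted p = 4e-18), and Manf, a secreted stress factor, at 291, 267 and 281 CPM in Malt1_PD, against 137, 121 and 133 CPM in Vector. No library of either group crossed over. Hspa13 was the member not called, at 86.8, 115 and 88.3 CPM in Malt1_PD, against 69.1, 87.8 and 79.9 CPM in Vector (adjusted p = 0.068), and it was called higher at 6 of the alternatives, among them without Malt1_PD replicate 1, without Malt1_PD replicate 3 and without Vector replicate 2. Of the 24 genes 19 were also higher in Malt1_PD than in Malt1_WT and none was lower, and 23 were higher than in the death-domain mutants. Over all genes 12.6% were higher than in Malt1_WT and 23.7% higher than in the mutants. Hspa5 averaged 3457 CPM in Malt1_PD, 2920.3 in Malt1_WT, 1236 in Malt1_V87R, 1165 in Malt1_L88D and 1177 in Vector (log2 difference 0.24 ± 0.04 SE, adjusted p = 9e-06 against Malt1_WT).

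The promoters of Hspa5 and Creld2 hold the endoplasmic reticulum stress element, a CCAAT box and a CCACG box set apart by a fixed spacer, and are shown for it. The stretches are the 200 bases before the start on the plus strand of GRCm38.p6, from RefSeq: chr2:34771890-34772089 for Hspa5 and chr15:88819446-88819645 for Creld2. Capitals mark the element with its spacer.
Hspa5: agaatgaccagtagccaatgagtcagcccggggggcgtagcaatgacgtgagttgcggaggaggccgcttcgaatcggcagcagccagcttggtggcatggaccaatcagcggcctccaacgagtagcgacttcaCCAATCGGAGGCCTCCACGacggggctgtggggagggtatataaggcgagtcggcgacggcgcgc
Creld2: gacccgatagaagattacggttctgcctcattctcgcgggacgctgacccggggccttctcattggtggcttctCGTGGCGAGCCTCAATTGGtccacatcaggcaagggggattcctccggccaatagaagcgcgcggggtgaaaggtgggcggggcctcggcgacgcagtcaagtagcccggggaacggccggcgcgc
It lies 65 to 47 bases before the RefSeq start in Hspa5 and, on the opposite strand, 126 to 108 bases before that of Creld2. GENCODE M21 begins Hspa5 at 34771970, inside the printed stretch. Of 21 promoters of chaperone genes that rose 8 held the element (38.1%). It was in 39 of all 32851 promoters (0.119%) and none of 32 promoters of ATF4 targets that rose.

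Targets of ATF4, the transcription factor of the integrated stress response, rose in 33 of 35 cases (median 0.72). Sesn2, an inhibitor of mTORC1 signalling that is also a p53 target, was at 136, 133 and 134 CPM in Malt1_PD, against 43.2, 43.1 and 44.8 CPM in Vector (log2 fold change 1.62 ± 0.05 SE, adjusted p = 1.9e-21). Ddit4, another brake on mTORC1, was at 495, 439.6 and 492 CPM in Malt1_PD, against 164, 154 and 160.0 CPM in Vector (log2 fold change 1.58 ± 0.05 SE, adjusted p = 2.3e-21). Mthfd2, a mitochondrial folate enzyme, was at 232, 228 and 237 CPM in Malt1_PD, against 93.7, 91.8 and 92.3 CPM in Vector (log2 fold change 1.33 ± 0.04 SE, adjusted p = 2.3e-21), and Slc7a1, a carrier of cationic amino acids, at 366, 372 and 381 CPM in Malt1_PD, against 171, 184 and 180.1 CPM in Vector. All libraries of Malt1_PD were above Vector. Phgdh, the first enzyme of serine synthesis, was at 453, 412 and 431 CPM in Malt1_PD, against 455, 408 and 421 CPM in Vector and did not pass the test. Against Malt1_WT, 4 ATF4 targets were higher and 8 lower, where 12.6% of all genes were higher and 10.7% lower (median log2 difference -0.04).

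**Figure D4:**
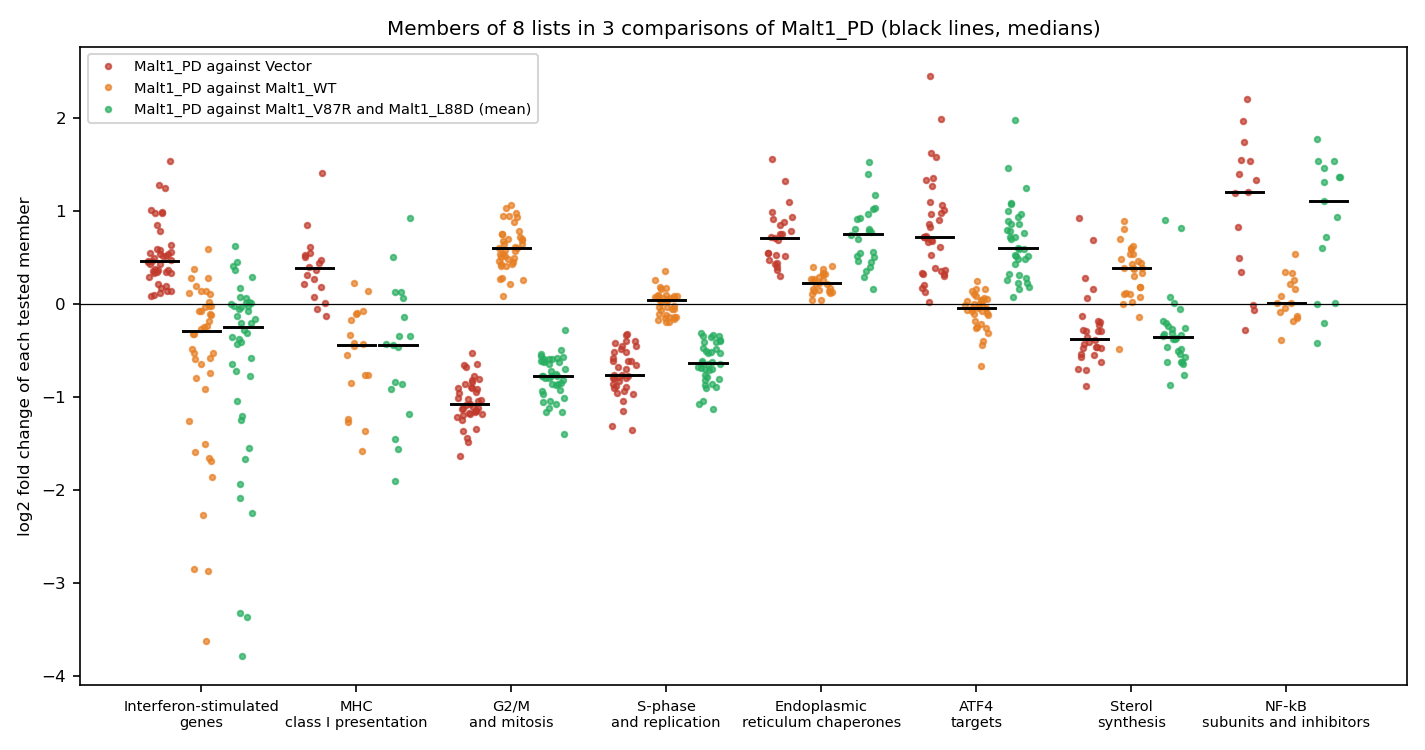
Log2 fold change of each tested member of 8 gene lists for Malt1_PD against Vector, against Malt1_WT and against the mean of Malt1_V87R and Malt1_L88D; black lines are medians. The G2/M medians are -1.08, 0.60 and -0.78, and those of interferon-stimulated genes 0.46, -0.30 and -0.25. The 3 comparisons share the Malt1_PD libraries.

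Most lipid synthesis genes fell. Of 28 sterol genes 21 fell and 3 rose (median -0.38). Acat2, which makes acetoacetyl-CoA, was at 22.9, 20.4 and 21.8 CPM in Malt1_PD, against 43.2, 38.0 and 38.9 CPM in Vector (log2 fold change -0.88 ± 0.07 SE, adjusted p = 8.1e-12). Npc1, which exports cholesterol from lysosomes, rose and was at 103, 106 and 106 CPM in Malt1_PD, against 56.2, 57.6 and 52.6 CPM in Vector (log2 fold change 0.92 ± 0.05 SE, adjusted p = 5.1e-15), and Msmo1, a sterol oxidase, rose too. Sqle, squalene epoxidase, was at 134, 127 and 128 CPM in Malt1_PD, against 127, 125 and 119 CPM in Vector (adjusted p = 0.24). Of the same 28 genes 19 were higher and 1 lower in Malt1_PD than in Malt1_WT (12.6% and 10.7% of all genes). Acat2 averaged 21.7 CPM in Malt1_PD, 14.1 in Malt1_WT and 40.0 in Vector (log2 difference 0.62 ± 0.08 SE, adjusted p = 9.2e-07 against Malt1_WT). Of 22 fatty acid genes 15 fell and 3 rose (median -0.40). Elovl6, a fatty acid elongase, was at 48.2, 53.2 and 53 CPM in Malt1_PD, against 132, 134 and 127 CPM in Vector (log2 fold change -1.34 ± 0.05 SE, adjusted p = 1.6e-18), and Scd1 and Scd2, which desaturate fatty acids, fell to 0.592 of Vector each. Acly, which makes their acetyl-CoA, overlapped between groups.

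Other metabolic lists had medians near 0. Over all genes 22.8% were called higher and 22% lower, the shares beside which the counts below stand. Glycolysis and hypoxia genes rose in 9 and fell in 11 of 28 cases (median 0.03). Slc2a1, the glucose carrier, was at 647, 635 and 650.4 CPM in Malt1_PD, against 374, 374 and 379.6 CPM in Vector (log2 fold change 0.78 ± 0.04 SE, adjusted p = 2.8e-16), Adm, adrenomedullin, at 212, 211 and 219 CPM in Malt1_PD, against 114, 115 and 117 CPM in Vector, while Gapdh overlapped between groups (adjusted p = 0.51). Respiratory chain genes fell in 9 of 28 cases with none higher (median -0.12), but in 4 without Malt1_PD replicate 2, without Vector replicate 1 or with the 6 libraries alone, and in 5 without Malt1_PD replicate 3; without Malt1_PD replicate 2 or Vector replicate 1, 1 gene was called higher. Mitochondrial ribosome genes rose in 2 of 27 cases, or 4 without Malt1_PD replicate 2, and fell in 6. Genes of ribosome biogenesis rose in 6 of 32 cases (18.8%), or 10 without Malt1_PD replicate 2, and fell in 7 (21.9%), near the shares of all genes. Myc was at 841, 815 and 854 CPM in Malt1_PD, against 676, 647 and 667 CPM in Vector (log2 fold change 0.33 ± 0.03 SE, adjusted p = 3.3e-09). Of 30 lysosome and autophagy genes 13 rose and 5 fell, with the autophagy receptor Sqstm1 at 1508, 1364 and 1426 CPM in Malt1_PD, against 722, 662 and 698 CPM in Vector (log2 fold change 1.05 ± 0.04 SE, adjusted p = 4.3e-18). Of 27 antioxidant genes 9 rose and 6 fell. Sod2, mitochondrial superoxide dismutase, rose 2.01-fold, and Hmox1, the haem-degrading enzyme, was at 462, 464 and 448 CPM in Malt1_PD, against 189.7, 194 and 198 CPM in Vector (log2 fold change 1.24 ± 0.04 SE, adjusted p = 1.5e-19), with a higher mean of 1038 CPM in Malt1_WT (log2 difference -1.18 ± 0.04 SE, adjusted p = 1.7e-18). Developmental signalling genes split into 8 up and 8 down of 23, or 5 down without Malt1_PD replicate 3, and the inhibitors of differentiation split too: Id2 and Id3 rose 2.30- and 1.99-fold and Id1 fell to 0.515 of Vector.

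Of 25 survival and death genes 14 rose and 2 fell (median 0.38). Birc3, the ubiquitin ligase cIAP2 that feeds TNF signals to NF-kB, was at 32.2, 34.5 and 33.5 CPM in Malt1_PD, against 7.39, 6.64 and 6.47 CPM in Vector (log2 fold change 2.28 ± 0.09 SE, adjusted p = 2.7e-18). Mlkl, the executor of necroptosis, was at 198, 198 and 202 CPM in Malt1_PD, against 136, 136 and 138 CPM in Vector (log2 fold change 0.55 ± 0.04 SE, adjusted p = 2.2e-13), and Mcl1, a survival protein of the BCL2 family, rose by 0.48 on the log2 scale. The executor gene Bak1 did not pass the test but was called lower without Vector replicate 2, and the survival gene Bcl2l1 did not pass it either.

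Of the 3318 genes higher in Malt1_PD than in Vector, 413 were also called higher than in Malt1_WT, 748 lower and 2157 in neither direction. Of the 3203 lower genes, 764 were higher than in Malt1_WT, 232 lower and 2207 not called. Against Malt1_WT 1834 genes were called higher and 1565 lower, or 1365 and 1766 with upper-quartile scaling. The counts of Malt1_PD against Malt1_WT rest on single libraries more than those against Vector: genes called higher numbered 1107 without Malt1_PD replicate 1, 1177 without replicate 3, 1159 without Malt1_WT replicate 2 and 1207 without replicate 3. Antxr1, a collagen-binding receptor, was one of the genes that rose farther in Malt1_PD than in Malt1_WT, at 45, 40.4 and 47.4 CPM in Malt1_PD, 25.1, 25.5 and 29.6 CPM in Malt1_WT and 4.51, 5.53 and 5.59 CPM in Vector (log2 difference 0.73 ± 0.10 SE, adjusted p = 2.6e-06 for Malt1_PD against Malt1_WT). Prelp, a matrix proteoglycan, was at 6.27, 5.34 and 7.06 CPM in Malt1_PD, 2.61, 3.92 and 3.41 CPM in Malt1_WT and 0.744, 1.35 and 1.03 CPM in Vector (log2 difference 0.91 ± 0.18 SE, adjusted p = 0.00043). Pmm1, a phosphomannomutase, was at 93.5, 87.2 and 91.2 CPM in Malt1_PD, 53.9, 45.7 and 51.0 CPM in Malt1_WT and 34.1, 31.3 and 35.8 CPM in Vector (log2 difference 0.85 ± 0.06 SE, adjusted p = 2.2e-11). The Malt1_WT libraries lay between Malt1_PD and Vector in each case. The chemokine gene Ccl7 (0.73), the water channel gene Aqp1 (0.69) and the Ral regulator gene Ralgds (0.66) completed the 6 named rises, each with its log2 difference from Malt1_WT. The 6 named falls, all to below Malt1_WT, began with C4b (-1.07), the DNA demethylase gene Tet1 (-0.88) and Grk3, a receptor kinase gene (-0.85). Fam13a (-0.70), Lrrc15 (-0.69) and the adhesion receptor gene Adgra2 (-0.63) completed them. Against Vector, Malt1_WT was not called for C4b, Tet1, Grk3 or Fam13a (log2 fold changes -0.19, -0.04, -0.27 and -0.13). Lrrc15 and Adgra2 were called lower in Malt1_WT too.

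Against the death-domain mutants Malt1_PD differed in 6751 genes, 3458 higher and 3293 lower, of which 549 and 389 by at least 2-fold. Several inflammatory genes stood far apart in this comparison, but not all. Ccl3 averaged 209 CPM in Malt1_PD, 6.84 in Malt1_V87R and 6.08 in Malt1_L88D (log2 difference 5.03 ± 0.07 SE, adjusted p = 1e-20). Of 22 cytokine genes 17 were higher in Malt1_PD and 2 lower, and of 26 AP-1 and ERK genes 24 were higher and 1 lower. Of 10 CXC and CX3C chemokine genes 5 were higher and 3 lower (23.7% and 22.6% of all genes). Against Vector 9 of these 10 rose in Malt1_V87R (7.01% of all genes) and 7 in Malt1_L88D (8.96%). Their median log2 fold changes there were 1.11 and 1.06, beside 1.51 in Malt1_PD. Nos2 was less far apart, at means of 1004 CPM in Malt1_PD, 768 in Malt1_V87R and 869.6 in Malt1_L88D (log2 difference 0.30 ± 0.03 SE, adjusted p = 3.3e-08). Oas1a, an antiviral enzyme gene, was higher in Malt1_PD than in the mutants (log2 difference 0.63 ± 0.05 SE, adjusted p = 8.8e-12), unlike Gbp2 (log2 difference -1.94 ± 0.04 SE, adjusted p = 3.1e-24).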

How the data were processed

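The libraries were made from total RNA with the NEBNext Ultra II Directional kit, a stranded kit, and sequenced paired-end on an Illumina NovaSeq, per the labels' protocols. Reads were processed with Trim Galore 0.6.0, STAR 2.7.3a and featureCounts 1.6.3 on GRCm38.p6, per the submitters' processing notes; whether counting used strand is not given in the sources used here, so genes that overlap on opposite strands are uncertain. The deposited table holds whole-number read counts per gene, not normalized, for 55571 genes in 15 columns. Of these, 12 were matched to libraries by column name and replicate number, with the Control columns taken as Vector. The 3 C461A columns were assigned to Malt1_PD, the Malt1 form left without columns of its own name, by replicate number. The symbols of the table were matched to the gene names of GENCODE M21, where 55341 of them were found. Identifiers and coordinates came from that match, except for names that GENCODE M21 gives to more than 1 gene.

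From these counts, edgeR 4.0.16 in R 4.3.3 (filterByExpr, TMM scaling, robust quasi-likelihood fit) was run over all 15 libraries, which share 1 estimate of the spread. Malt1_PD was contrasted with Vector, with Malt1_WT and with the mean of Malt1_V87R and Malt1_L88D. p-values were Benjamini-Hochberg adjusted over the 14571 genes tested, with a threshold of 0.05. Each SE is the log2 fold change divided by the square root of its F statistic. The common biological coefficient of variation was 4.61%. A count of 0 allows up to 3 counts, which is 0.159 to 0.178 CPM in a Malt1_PD library and 0.139 to 0.184 CPM in a Vector library; this covers counting error only. The procedure was tested on simulated data.

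Genes were named by a rule: Malt1; the 12 largest rises and 12 largest falls by log2 fold change and the 8 and 8 by CPM, among called genes without overlap and with at least 5 CPM in the higher group; those moved farther than in Malt1_WT or opposite to it, 6 each; genes at 0 in 1 group; and up to 4 called and 2 uncalled members of each list. Other genes, such as exceptions within a list and those plotted for the interferon branch, were picked after their values were seen. The members and lists were chosen with earlier results of these data known. Alternatives were RLE and upper-quartile scaling, DESeq2 1.42.0, limma 3.58.1 with voom, no filter, a replicate block, a fit of only the libraries compared, and leaving out each library.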

Additional observations from a re-analysis of the deposited data

Results flagged for a closer look

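Of the genes without overlap between Malt1_PD and Vector and with at least 5 CPM in the higher group, 36 were called on opposite sides of Vector in Malt1_PD and Malt1_WT and also differed between these 2 lines. The 6 with the smallest adjusted p between the lines are described here. Agt, angiotensinogen, was at 7.54, 6.77 and 6.69 CPM in Malt1_PD, 0.914, 0.979 and 1.09 CPM in Malt1_WT and 3.72, 2.89 and 3.77 CPM in Vector, a log2 fold change of 2.81 for Malt1_PD against Malt1_WT (adjusted p = 8.1e-12, edgeR). Spp1, osteopontin, was at 4482, 4341 and 4421 CPM in Malt1_PD, 3265, 3228 and 3281 CPM in Malt1_WT and 4220.2, 4088 and 4116 CPM in Vector, a log2 fold change of 0.44 against Malt1_WT.

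Of these 6, the other 4 were lower in Malt1_PD than in Vector and higher in Malt1_WT. C1s1, a complement protease gene, averaged 83.2 CPM in Malt1_PD, 155 CPM in Malt1_WT and 98.8 CPM in Vector, with a log2 fold change of -0.90 against Malt1_WT. Samhd1, a nucleotide hydrolase that restricts viruses, averaged 152 CPM in Malt1_PD, 243 CPM in Malt1_WT and 178 CPM in Vector, with a log2 fold change of -0.67. Tap2, a peptide transporter of antigen presentation, averaged 64.5 CPM in Malt1_PD, 110.3 CPM in Malt1_WT and 70.8 CPM in Vector, with a log2 fold change of -0.77. Bhlhe41, a clock repressor, averaged 38.0 CPM in Malt1_PD, 62.3 CPM in Malt1_WT and 42.3 CPM in Vector, with a log2 fold change of -0.71. The calls of Malt1_PD against Vector were lost at 10 alternatives for Bhlhe41, 7 for Tap2 and 2 for Spp1. These genes were ranked by their difference from Malt1_WT, which is therefore no independent result.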

How the results depend on the processing

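Genes called between Malt1_PD and Vector numbered 5681 with a fit of the 6 libraries alone, 6856 with the replicate block and 5832 to 6228 when 1 library was left out, against 6521. Of genes called between Malt1_PD and Vector both as reported and at an alternative, 0 changed sign, and the shift of the median over all genes stayed within 0.021 on the log2 scale. Residuals of same-numbered libraries of Malt1_PD and Vector correlated at 0.132, 0.150 and 0.0118, and those of differently numbered libraries at -0.162 to 0.0438. Whether same-numbered libraries share more than a number was not tested. The labels tie no number to a culture or day, so the block is no paired analysis. The block gave 3474 higher and 3382 lower genes.

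The count of genes higher in Malt1_PD than in Malt1_WT was the least stable: 1834 as reported, 1201 with only the libraries compared, and 1107 to 2085 when 1 library was left out. Those at least 2-fold higher ranged from 29 to 62 when 1 library was left out, against 41. Upper-quartile scaling turned the balance of calls in all 3 comparisons, to 1365 higher and 1766 lower against Malt1_WT (1834 and 1565 as reported), 3113 and 3476 against Vector (3318 and 3203), and 3199 and 3542 against the death-domain mutants (3458 and 3293). Of 289 named genes, 24 changed their side of the threshold against Vector at some alternative, 73 against Malt1_WT and 28 against the death-domain mutants. The causes were not tested. Totals of 15471746 to 21458457 counts left 14571 of 55571 genes testable, and 22982 had no count in any library.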
